A study of Mus musculus with 3 samples.

Results

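The cells described here were Lum and Dpt fibroblasts of the inflamed mouse colon, 1397 of the 19109 cell barcodes that passed the filters in 3 single-cell RNA libraries. A barcode was kept with at least 500 UMIs (unique molecular identifiers, each standing for 1 captured RNA molecule), at least 200 genes and at most 10% of its UMIs in mitochondrial genes. A member carried at least 1 UMI of Lum, Mgp or Dcn. It also carried at least 2 summed UMIs of Dpt, Fbln1, Thbs2, Cilp and Fibin, and more of these than of Adamdec1, Ccl11, Col15a1, Lepr and Postn. Members had no UMI of the leukocyte gene Ptprc and at most a few UMIs of epithelial, smooth muscle, pacemaker cell and neutrophil genes. The same rule with the 2 sets of 5 genes exchanged gave 1383 mucosal fibroblasts, which serve as the comparison class. There were 486 members in the DATK32 library, 300 in the MECA-367 library and 611 in the rat IgG library.

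Fibroblasts make the collagens, proteoglycans and elastic fibres of the gut wall, and different layers hold different kinds. Fibroblasts next to the crypts supply Wnt and BMP signals to the epithelium, while those of the deeper lamina propria, submucosa and vessel sheaths are known for Lum, Mgp, Dpt, Fbln1 and complement C3. In colitis, fibroblasts also release acute-phase proteins, chemokines and matrix proteases and display more MHC class I.

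All mice were C57/BL6J with acute colitis from dextran sulfate sodium (DSS), given at 1.5% in the drinking water for 7 days and followed by 3 days of plain water. Each group received 250 µg of a rat antibody into the peritoneum 3 times a week, and each group is 1 library: DATK32, MECA-367 and rat IgG as isotype control. DATK32 is known as an antibody to integrin alpha4beta7 while MECA-367 binds MAdCAM-1, to which this integrin attaches on gut vessels. The labels call DATK32 the ontamalimab surrogate and MECA-367 the vedolizumab surrogate, so values are given by clone only. Lamina propria cells were sorted as viable and CD45 positive per the labels, a gate that should remove fibroblasts. The sort can therefore set the shares given below, and the number of mice behind each library is not given in the sources used here. There was no replicate library, so no p-value was computed. Intervals are 95% intervals for counting error alone.

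The members carried a median of 1173.5 UMIs in the DATK32 library, 1727 in MECA-367 and 990 in rat IgG, and their summed counts were 671057, 593516 and 695254 UMIs in that order of libraries. No barcode was shared between the members of any pair of libraries. The level of the 5 markers that are also in the rule was set by the rule, so C3 was the only supplied marker outside it. C3 stood at 1620 CPM (the members' UMIs of a gene, scaled to a common total per library) in DATK32, 3339 CPM in MECA-367 and 1552 CPM in rat IgG, against 365, 447 and 280 CPM in the mucosal fibroblasts of those libraries. In members thinned to 1000 UMIs each, 40.4%, 54.8% and 47.0% of cells had a C3 UMI in DATK32, MECA-367 and rat IgG. T cells, which should lack C3, had shares of 4.42%, 2.50% and 1.36%, at median depths before thinning of 1892, 1893 and 1847 UMIs against 1480, 1976 and 1363 UMIs in members. The layer of the wall from which a dissociated cell came cannot be read from these files.

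Few members lay close to the threshold of 2 summed UMIs. Exactly 2 summed UMIs of the 5 rule genes were found in 16 members of DATK32, 11 of MECA-367 and 29 of rat IgG, while 12, 1 and 33 otherwise eligible barcodes fell just outside with 1 UMI. The median member had 11, 12 and 9 such UMIs in those libraries. A further 175, 516 and 268 barcodes had at least 2 such UMIs but as many or more of Adamdec1, Ccl11, Col15a1, Lepr and Postn. They were left out, against 486, 300 and 611 members, and those with more UMIs of the latter genes are among the mucosal fibroblasts. How far this limit set the number of members was not tested. RNA of other cell types was present. The 11 listed B and plasma cell genes summed to 8734 CPM in members of DATK32, 2883 CPM in MECA-367 and 15363 CPM in rat IgG, with 1 member of each library holding 1681, 912 and 1748 Igkc UMIs. The 8 neutrophil genes summed to 359, 573 and 279 CPM, with the defining gene Csf3r at 0 in DATK32 and MECA-367. The 10 macrophage genes summed to 104, 197 and 154 CPM, the 11 epithelial genes to 276, 177 and 355 CPM, and the 9 T cell genes to 83.5, 35.4 and 121 CPM. Their part in the differences between libraries was not tested beyond the recount without cells rich in such RNA.

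Members made up a smaller share of the MECA-367 library. They were 8.30% of kept barcodes in DATK32 (exact Clopper-Pearson interval 7.61 to 9.04%), 5.09% in MECA-367 (4.55 to 5.69%) and 8.29% in rat IgG (7.67 to 8.95%). The log2 ratio to rat IgG was 0.00 for DATK32 and -0.70 for MECA-367. Among members and mucosal fibroblasts together, members were 65.1% in DATK32, 29.9% in MECA-367 and 59.4% in rat IgG. Here the log2 ratio to rat IgG was 0.13 for DATK32 and -0.99 for MECA-367, and 1.13 for DATK32 over MECA-367. Mucosal fibroblasts numbered 260, 705 and 418 in DATK32, MECA-367 and rat IgG, so the mix of the 2 fibroblast classes was turned round in MECA-367. The share of kept barcodes depended on depth: with every barcode thinned to 1000 UMIs the log2 ratio of MECA-367 to rat IgG was -0.20, while the ratio within fibroblasts stayed between -0.98 and -1.15 under the alternatives. Among barcodes with no Ptprc UMI the members' shares were 11.3%, 8.26% and 11.1%. With that denominator the log2 ratios of -0.43 for MECA-367 over rat IgG and 0.45 for DATK32 over MECA-367 were under the 1.5-fold threshold and not called. Genes of the rule differ between libraries, Fibin among them, and how far this moved the number of members was not tested.

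**Figure D1:**
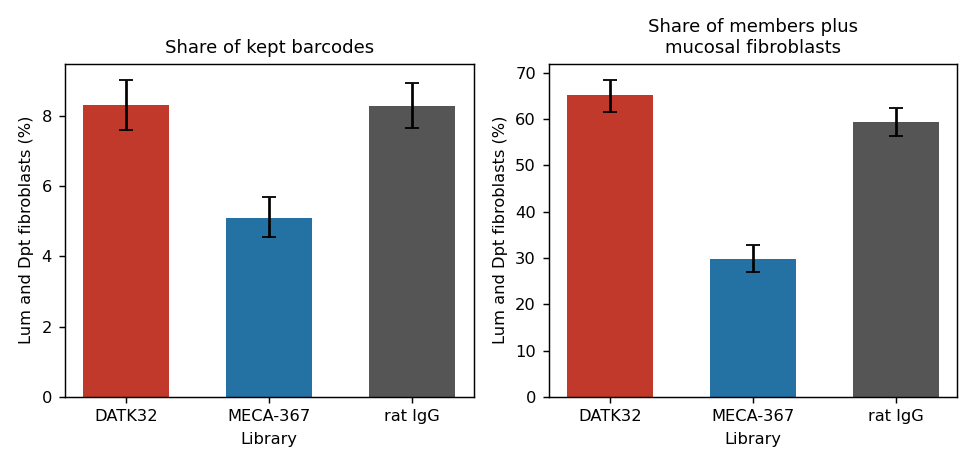
Lum and Dpt fibroblasts as a percentage of kept barcodes (left) and of members plus mucosal fibroblasts (right) in the DATK32, MECA-367 and rat IgG libraries, with exact 95% binomial intervals. The MECA-367 bar is lowest in both panels, at 5.09% and 29.9%.

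Outside the genes of the rule, members shared genes that stood far lower in mucosal fibroblasts of the same library. Since the rule chose the members by this contrast, the values are a description without a test. Of 2617 genes with enough counts, 140 (5.35%) were higher in members in all 3 libraries, at 1.5-fold or more with Poisson intervals apart, and 157 (6%) were lower. Hp, which encodes the haemoglobin-binding acute-phase protein haptoglobin, stood at 1532 CPM in members of DATK32, 2701 CPM in MECA-367 and 1095 CPM in rat IgG, against 12.8, 63.5 and 4.18 CPM in mucosal fibroblasts. Ptn, which encodes the heparin-binding growth factor pleiotrophin, stood at 790, 544 and 744 CPM in members against 15.3, 18.4 and 10.4 CPM in mucosal fibroblasts. For both genes the ranges of the classes were far apart in every library.

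Other genes that marked members encode matrix proteins and membrane proteins. Col8a1, a short-chain collagen of vessel sheaths, had 235, 217 and 249 CPM in members of DATK32, MECA-367 and rat IgG, against 25.6, 4.94 and 6.27 CPM in mucosal fibroblasts. Smoc2, a secreted calcium-binding matrix protein, had 243, 221 and 275 CPM against 10.2, 7.06 and 6.27 CPM. Gas1, a surface co-receptor for hedgehog ligands, had 221, 172 and 299 CPM against 2.56, 2.12 and 29.3 CPM. Chodl, which encodes the membrane lectin chondrolectin, had 335, 381 and 296 CPM against 2.56, 19.8 and 12.5 CPM. Cox8b, a cytochrome c oxidase subunit of heart and muscle, the proteoglycan gene Spock2, Adamtsl3, Car8, Plcb4 and Tmem229a completed the 12 highest. Members also carried Rgs5, a regulator of G protein signalling best known from pericytes. Rgs5 stood at 1016, 954 and 818 CPM in members and 135, 117 and 138 CPM in mucosal fibroblasts. After thinning, 43.6%, 44.8% and 39.6% of members had an Rgs5 UMI, against 0.519%, 0% and 0.817% of T cells. Rgs5 is 1 of 6 listed pericyte genes, which summed to 1444, 1425 and 1267 CPM in members against 263, 232 and 303 CPM in mucosal fibroblasts. Abcc9, which encodes the regulatory subunit of a potassium channel of pericytes, had a UMI in 25.1%, 22.8% and 28.2% of thinned members, against 6.28%, 4.29% and 6.57% of mucosal fibroblasts. Cspg4 had 25.3, 28.6 and 28.8 CPM in members, while Notch3 had 2, 1 and 0 UMIs. The part of pericytes in these values was not tested.

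The genes lowest in members included several for signals between fibroblasts and the epithelium. Bmp5, a BMP ligand made by fibroblasts under the epithelium, had 44.7, 28.6 and 31.6 CPM in members of DATK32, MECA-367 and rat IgG, against 309, 320 and 458 CPM in mucosal fibroblasts. Wnt4, a Wnt ligand, had 29.8, 1.68 and 20.1 CPM against 210, 153 and 159 CPM. Ptch1, the receptor and target gene of hedgehog signalling, had 59.6, 37.1 and 43.1 CPM against 268, 324 and 307 CPM. Fgfr2, Fgf10, Id1, Rbp4, Pcsk6, Scube1, Pdlim3, Adam23 and Enho were also among the 12 lowest, each lower in 3 of 3 libraries. Thus a BMP ligand, a Wnt ligand, a hedgehog receptor and an FGF ligand and receptor stood on the mucosal side in every library.

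**Figure D2:**
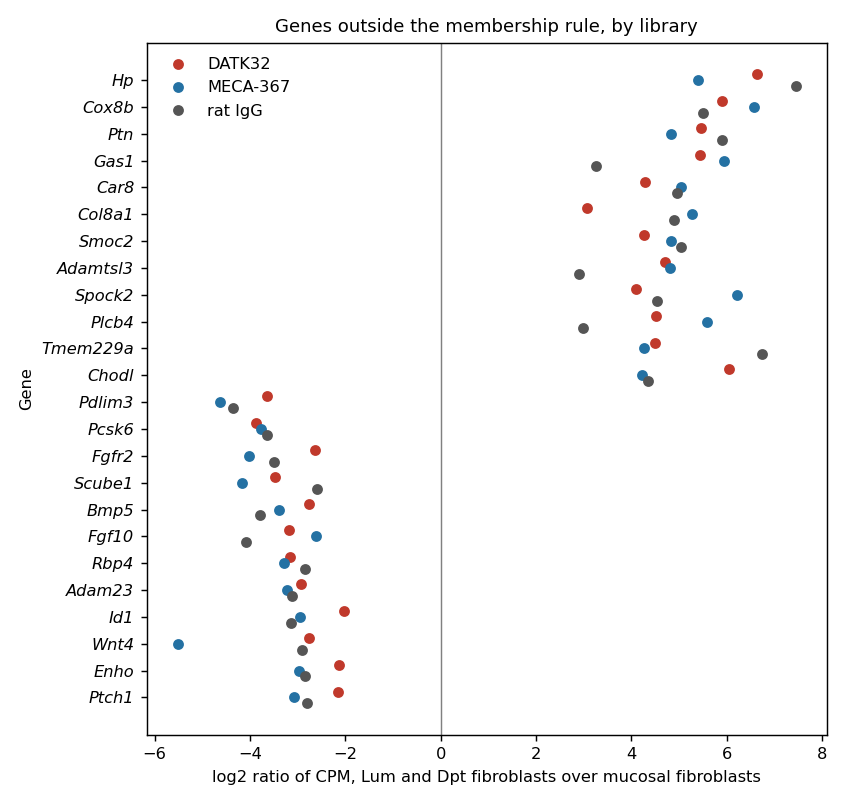
Log2 ratio of CPM in members over mucosal fibroblasts of the same library for the 12 highest and 12 lowest genes outside the membership rule, 1 point per library. All points of the upper 12 genes lie right of 0 and all points of the lower 12 left of it, and the Tmem229a point of rat IgG rests on 0 UMIs in mucosal fibroblasts, so its place depends on the added count.

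The members were not uniform, and the pairs of genes below were chosen after their values were seen. Hp was found together with Lcn2, which encodes the iron-siderophore binding protein lipocalin 2. In DATK32, 41.1% of thinned members with an Hp UMI also had Lcn2, against 8.02% of those without Hp. In MECA-367 these shares were 65.5% and 17.8%, and in rat IgG 42.4% and 10.1%. The intervals of the cells with and without Hp were apart in each library. Timp1, the metalloprotease inhibitor, showed the same link: 64.3%, 43.0% and 48.4% of members with Lcn2 had a Timp1 UMI in DATK32, MECA-367 and rat IgG, against 13.9%, 9.76% and 19.5% of members without. Mmp3, which encodes stromelysin 1, was found in 44.6%, 25.6% and 33.9% of members with Lcn2 and in 3.98%, 4.88% and 14.0% of members without.

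Some members carried Grem1, a secreted BMP antagonist. Of the members with Grem1, 0 of 24 in DATK32, 2 of 27 in MECA-367 and 1 of 31 in rat IgG had an Hp UMI after thinning, against 33.6%, 38.1% and 36.7% of members without Grem1. The 0 of 24 allows a share of up to 14.2% by the exact interval. Igfbp5, which encodes a binding protein of insulin-like growth factors, was found in 83.3% of the Grem1 members of DATK32, 14.8% of those of MECA-367 and 80.6% of those of rat IgG. Members without Grem1 had Igfbp5 in 6.01%, 6.73% and 12%. The MECA-367 interval of 4.19 to 33.7% was apart from those of DATK32, 62.6 to 95.3%, and rat IgG, 62.5 to 92.5%. The link between Grem1 and Igfbp5 was thus seen in DATK32 and rat IgG, and the MECA-367 share among Grem1 cells overlapped the share among the other members. Members with Ptn had Igfbp5 in 3.01%, 0% and 2.59%, against 19.0%, 10.6% and 29.7% of members without Ptn.

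**Figure D3:**
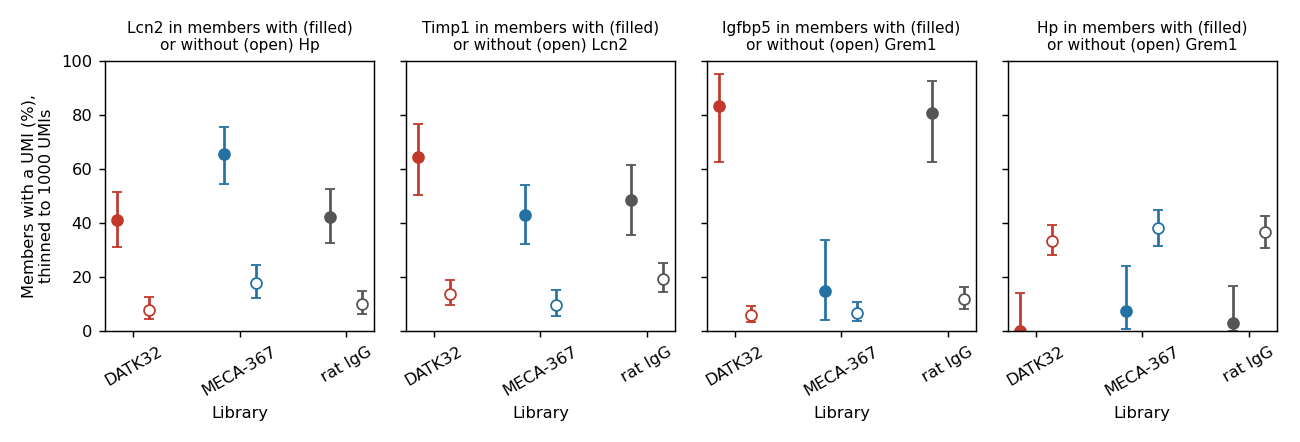
Percentage of members, thinned to 1000 UMIs, with a UMI of a gene among cells with (filled) and without (open) a UMI of another, by library, with exact 95% binomial intervals. Lcn2 and Timp1 follow Hp and Lcn2 in all 3 libraries, Hp is rare among Grem1 cells, and Igfbp5 is found in 83.3% and 80.6% of Grem1 cells in DATK32 and rat IgG but 14.8% in MECA-367.

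The next question was how members differed between the antibody libraries. A gene was measured with at least 50 UMIs over the 3 libraries and was called higher or lower at a ratio of 1.5 or more with Poisson intervals apart. Of 5417 genes measured, 174 (3.21%) were higher and 162 (2.99%) lower in MECA-367 than in rat IgG. For DATK32 over rat IgG, 42 (0.775%) were higher and 71 (1.31%) lower. In mucosal fibroblasts, of 5873 measured genes, 201 (3.42%) were higher and 244 (4.15%) lower for MECA-367 over rat IgG, and 85 (1.45%) and 75 (1.28%) for DATK32 over rat IgG. For DATK32 over MECA-367 they were 167 (2.84%) higher and 136 (2.32%) lower. TMM scaling moved the median log2 ratio of all genes from -0.04 to 0.06 for MECA-367. It gave 242 higher and 113 lower genes there, and 76 higher and 42 lower for DATK32. The balance of higher against lower calls thus moved with the scaling.

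Secreted acute-phase and complement genes were higher in the members of MECA-367. C3, the central complement component, had 1087 UMIs in DATK32, 1982 in MECA-367 and 1079 in rat IgG, with CPM as given above. The log2 ratio to rat IgG was 1.10 for MECA-367 and 0.06 for DATK32, and in summed UMIs MECA-367 stood apart from DATK32 and rat IgG. The interval of the thinned C3 share in MECA-367, 48.4 to 61.1%, overlapped that in rat IgG, 41.2 to 52.8%. Lcn2 stood at 623 CPM in DATK32, 2163 CPM in MECA-367 and 567 CPM in rat IgG, a log2 ratio to rat IgG of 1.93 for MECA-367 and 0.14 for DATK32. After thinning, 18.2%, 34.4% and 20.8% of members had an Lcn2 UMI, against 3.64%, 4.50% and 2.18% of T cells. Hp was 1.30 higher on the log2 scale in MECA-367 than in rat IgG, but its thinned shares of 30.9%, 34.8% and 33.2% were close to each other. C4b, which encodes complement C4, had 106, 229 and 74.8 CPM, and Cfb, which encodes complement factor B, had 104, 185 and 96.4 CPM. C3, C4b and Cfb were the 3 higher of 9 measured complement genes for MECA-367 over rat IgG, with none lower and a list median of 0.48 against -0.04 over all measured genes. For DATK32 over rat IgG 0 of the 9 were called, with a median of 0.06. In the thinned cells C3 and C4b kept their MECA-367 call and Cfb, at 0.44, did not. The thinned shares of C4b were 6.51%, 12% and 9.06% in DATK32, MECA-367 and rat IgG, with intervals that overlap. Of 28 measured genes of inflammatory fibroblasts, the list that holds Lcn2, Hp and Saa3, 7 were higher and 0 lower for MECA-367, with a median of 0.21. For DATK32 over rat IgG 1, Saa3, was higher, with a median of 0.08, and that Saa3 ratio was -1.92 in the thinned cells. Among all genes measured in members 3.21% were higher and 2.99% lower for MECA-367, and 0.775% higher for DATK32. Mucosal fibroblasts had 8 of 27 genes of the inflammatory list higher and 1 lower for MECA-367, with a median of 0.31. Their Lcn2 ratio was 0.60. Of 10 complement genes they had 2 higher and 1 lower, with a median of 0.11.

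Saa3, an inducible serum amyloid A protein, had the largest MECA-367 ratio among the genes chosen by the naming rule, and it came from few cells. It stood at 657 CPM in DATK32, 2067 CPM in MECA-367 and 430 CPM in rat IgG. Only 26, 45 and 40 members had a Saa3 UMI, and 1 DATK32 member held 151 of that library's 441. The log2 ratio to rat IgG was 2.26 for MECA-367. T cells carried 480, 987 and 227 CPM of Saa3, the same order of libraries as in members. The thinned shares were 4.89%, 13.6% and 10.1% in members and 6.49%, 8% and 4.90% in T cells. In DATK32 the share in members was thus below that in T cells. In MECA-367 the intervals of these shares, 9.61 to 18.5% in members and 5.96 to 10.5% in T cells, overlap. The part of free RNA in these shares and in the MECA-367 ratio of Saa3 was not tested. The DATK32 ratio of 0.61 turned negative in the thinned cells, at -1.92.

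The promoters of C3, Lcn2, Saa3 and Bst2 are printed because the summed UMIs of each were called higher in members of MECA-367 than of rat IgG. The windows run from 250 bases before the transcription start to 50 after it and are given 5' to 3' on the gene's strand, from RefSeq, build GRCm38.p6. They are chr17:57228087-57228386 (minus strand) for C3, chr2:32387690-32387989 (minus strand) for Lcn2, chr7:46715627-46715926 (minus strand) for Saa3 and chr8:71537423-71537722 (minus strand) for the interferon-inducible gene Bst2. Capitals mark matches to TTGCNNAA, a core of C/EBP sites, and to the core of the interferon-stimulated response element (ISRE).
C3 promoter: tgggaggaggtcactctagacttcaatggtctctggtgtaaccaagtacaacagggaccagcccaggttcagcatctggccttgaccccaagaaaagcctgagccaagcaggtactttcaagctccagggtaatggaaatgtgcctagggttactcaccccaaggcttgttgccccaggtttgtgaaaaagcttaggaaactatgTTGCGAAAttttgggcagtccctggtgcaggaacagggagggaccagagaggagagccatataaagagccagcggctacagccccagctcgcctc
Lcn2 promoter: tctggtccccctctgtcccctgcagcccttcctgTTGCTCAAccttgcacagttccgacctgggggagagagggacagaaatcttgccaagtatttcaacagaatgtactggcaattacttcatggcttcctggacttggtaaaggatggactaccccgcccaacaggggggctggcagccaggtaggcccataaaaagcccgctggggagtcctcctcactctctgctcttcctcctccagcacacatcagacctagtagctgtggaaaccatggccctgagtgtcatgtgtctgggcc
Saa3 promoter: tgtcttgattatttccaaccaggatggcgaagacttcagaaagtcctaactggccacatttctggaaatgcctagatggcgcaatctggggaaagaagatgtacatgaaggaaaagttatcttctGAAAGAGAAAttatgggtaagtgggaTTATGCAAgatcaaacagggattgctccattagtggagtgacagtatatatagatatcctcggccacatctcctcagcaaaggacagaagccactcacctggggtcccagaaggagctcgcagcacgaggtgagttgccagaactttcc
Bst2 promoter: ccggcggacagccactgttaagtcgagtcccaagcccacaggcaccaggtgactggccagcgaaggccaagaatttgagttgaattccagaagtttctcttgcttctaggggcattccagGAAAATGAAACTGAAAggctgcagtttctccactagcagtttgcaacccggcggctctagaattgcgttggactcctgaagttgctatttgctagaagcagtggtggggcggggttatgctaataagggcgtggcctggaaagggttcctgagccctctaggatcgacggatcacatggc
C3, Lcn2 and Saa3 each held 1 TTGCNNAA match, that of Saa3 on the opposite strand, beginning 45, 216 and 99 bases before the start. Saa3 also held 1 match to the ISRE core and Bst2 held 2 that overlap. TTGCNNAA was searched after the promoters were seen, and 10.8% of the 32851 RefSeq windows hold it on either strand. The ISRE core is in 3.44% of windows. The 2 NF-kB motifs searched, which none of these 4 windows holds, are in 0.155% and 0.0883%. Among the genes higher in MECA-367 members, 132 had a window, of which 22 (16.7%) held TTGCNNAA and 15 (11.4%) held the ISRE core, against 10.2% and 4.34% of the measured genes. These matches are letters in a window, not sites of binding. Cebpb and Cebpd, which encode C/EBP factors, had 380, 691 and 388 CPM and 1051, 1734 and 736 CPM in DATK32, MECA-367 and rat IgG. Both were higher in MECA-367 than in rat IgG, by 0.83 and 1.23 on the log2 scale.

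A part of the interferon-stimulated and antigen-presentation genes was also higher in MECA-367 members. Of 36 measured genes of the interferon list, 10 were higher and 1 lower for MECA-367 over rat IgG, with a median of 0.61. Over all measured genes 3.21% were higher and 2.99% lower, with a median of -0.04. For DATK32 over rat IgG 2 were higher, Igtp and Iigp1, and the median was 0.13. In mucosal fibroblasts 7 of 37 were higher for MECA-367 and 8 for DATK32, with medians of 0.32 and 0.60. Ifitm3, which encodes a membrane protein that blocks virus entry, had 3660, 5048 and 3064 CPM in members of DATK32, MECA-367 and rat IgG, a MECA-367 log2 ratio of 0.72. Bst2, which encodes the virus-tethering protein tetherin, had 280, 517 and 233 CPM, a ratio of 1.15. Iigp1, an interferon-induced GTPase, had 399, 519 and 263 CPM, so that rat IgG was lowest and both antibody libraries were called higher, at 0.60 and 0.98. The exception was Ifit1, an RNA-binding antiviral protein, with 25.3, 15.2 and 50.3 CPM. In the thinned cells the MECA-367 ratios of Ifitm3, Iigp1 and Ifit1 were 0.53, 0.57 and -0.32 and not called. The MECA-367 call of Igtp, at 1.45, was also lost there. The DATK32 calls of Iigp1 and Igtp, at 0.60 and 0.93, held in 4 and 3 of 10 alternatives, and their thinned ratios were -0.06 and 0.46. In mucosal fibroblasts Iigp1 had 856, 822 and 393 CPM, again lowest in rat IgG.

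For MHC class I, 4 of 14 measured genes were higher in MECA-367 than in rat IgG and none lower, with a median of 0.55. In mucosal fibroblasts these counts were the same, with a median of 0.42. Among all genes measured in members 3.21% were higher and 2.99% lower in this comparison. H2-K1 and H2-D1 encode classical class I heavy chains. H2-K1 had 984, 1631 and 1031 CPM and H2-D1 had 1141, 1899 and 1015 CPM in DATK32, MECA-367 and rat IgG. H2-T23, a non-classical class I chain, had 153, 350 and 170 CPM, and Psmb8, an immunoproteasome subunit, 107, 177 and 114 CPM. In all of these DATK32 and rat IgG lay near each other, and 0 of 14 genes were called between them, with a median of -0.21. After thinning, 59.3%, 78.0% and 59.1% of members had an H2-D1 UMI. B2m, the class I light chain, had 2301, 3085 and 2241 CPM and missed the fold of 1.5, at 0.46.

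Chemokine differences rested on fewer cells. Ccl2 and Ccl7, ligands of the monocyte receptor CCR2, had 346, 687 and 266 CPM and 250, 450 and 187 CPM in DATK32, MECA-367 and rat IgG. Their MECA-367 log2 ratios of 1.37 and 1.26 were 0.44 and 0.13 in the thinned cells, where neither was called. Of 10 measured chemokines outside the neutrophil list, 4 were higher for MECA-367 over rat IgG, namely Ccl2, Ccl7, Cxcl9 and Cxcl10, with a median of 0.37. For DATK32 2 were lower, Ccl5 and Cxcl9. The neutrophil chemokine list also holds the cytokine genes Il6 and Il11. Of its 5 measured genes 3 were higher for MECA-367, Cxcl2, Cxcl5 and Il6, with a median of 1.01. Il6 was found in 10, 19 and 13 members of DATK32, MECA-367 and rat IgG. Among all measured genes 3.21% were higher for MECA-367 and 1.31% lower for DATK32. Cxcl5, a ligand of the neutrophil receptor CXCR2, had 186, 374 and 186 CPM, found in 30, 31 and 42 members. Its ratio of 1.01 became -0.35 in the thinned cells. Cxcl2 had 159, 244 and 114 CPM in members against 797, 910 and 481 CPM in T cells, and its thinned share was below that of T cells in every library, at 4.89%, 8% and 6.04% against 15.6%, 11.7% and 13.4%. The thinned shares of Cxcl10 were 10.1%, 11.6% and 9.40% in members and 21.3%, 14.0% and 18.8% in T cells. Those of Cxcl9 were 1.30%, 4.80% and 3.69% in members and 5.97%, 4.83% and 5.45% in T cells. Those of Ccl5 were 1.63%, 2.40% and 4.36% in members and 52.7%, 64.0% and 45.8% in T cells. The shares of Cxcl2, Cxcl9 and Cxcl10 in members were no higher than those in T cells. The part of free RNA in these genes was not tested, and the MECA-367 call of Cxcl10 held in 10 of 10 alternatives. Ccl5 is a chemokine of T cells, so their share is no background for it. The origin of its UMIs in members was not tested.

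Detoxification, metal-binding and lipid genes were among the clearest MECA-367 differences. Gsta3, a glutathione transferase, had 83.5, 323 and 73.4 CPM in members of DATK32, MECA-367 and rat IgG, a MECA-367 log2 ratio of 2.12, and was at 0 in T cells. Its thinned shares were 8.47%, 24.0% and 4.36%. In mucosal fibroblasts the MECA-367 log2 ratio of Gsta3 was 4.15. The metallothioneins Mt1 and Mt2, which bind zinc and copper, had 2121, 4334 and 1822 CPM and 794, 1678 and 836 CPM, again with MECA-367 alone high. Fabp4, a fatty acid binding protein, had 262, 487 and 138 CPM and was called higher in both antibody libraries, at 0.92 for DATK32 and 1.81 for MECA-367. Of 22 measured genes of the list, 7 were higher and 1 lower for MECA-367, with a median of 0.35. For DATK32 3, Fabp4, Fabp5 and Plin2, were higher, with a median of 0.20. Among all measured genes 3.21% were higher and 2.99% lower for MECA-367, and 0.775% were higher for DATK32. In mucosal fibroblasts 7 of 21 were higher and 1 lower for MECA-367, with a median of 0.42. The scavenger receptor gene Scara5 had 47.7, 162 and 67.6 CPM and the flavin monooxygenase gene Fmo2 137, 339 and 168 CPM. In the thinned cells Mt2 and Scara5 were no longer called, at 0.49 and 0.88, while Gsta3, Mt1, Fabp4 and Fmo2 were. For DATK32, Fabp5 at 2.15 and Plin2 at 0.64 were 1.01 and 0.22 in the thinned cells and not called, and the Plin2 call held in 3 of 10 alternatives.

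Among the other genes that the naming rule picked, Tsc22d3 and Zbtb16 are both known to be induced by glucocorticoids. Tsc22d3 had 82.0, 236 and 86.3 CPM in members of DATK32, MECA-367 and rat IgG, and Zbtb16, a zinc-finger transcription factor, had 35.8, 135 and 36.0 CPM. DATK32 and rat IgG were nearly equal for each. In mucosal fibroblasts Tsc22d3 had 161, 379 and 163 CPM and Zbtb16 had 53.7, 119 and 73.1 CPM. T cells had 100, 131 and 142 CPM of Tsc22d3, with rat IgG highest. Thinned shares of Zbtb16 in members were 4.56%, 14.0% and 4.03%. Kcnj8, a potassium channel subunit of pericytes and smooth muscle, had 67.1, 170 and 57.5 CPM. Ddt, which encodes the MIF-like cytokine D-dopachrome tautomerase, had 77.5, 108 and 34.5 CPM in members and 66.9, 131 and 60.1 CPM in T cells. Of 37 measured immediate-early and heat shock genes 9 were higher for MECA-367, with a median of 0.25, and 0 for DATK32, with a median of 0.07. Over all measured genes 3.21% were higher for MECA-367. In mucosal fibroblasts 20 of 38 genes of this list were higher for MECA-367 and 5 for DATK32, with medians of 0.63 and 0.09.

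**Figure D4:**
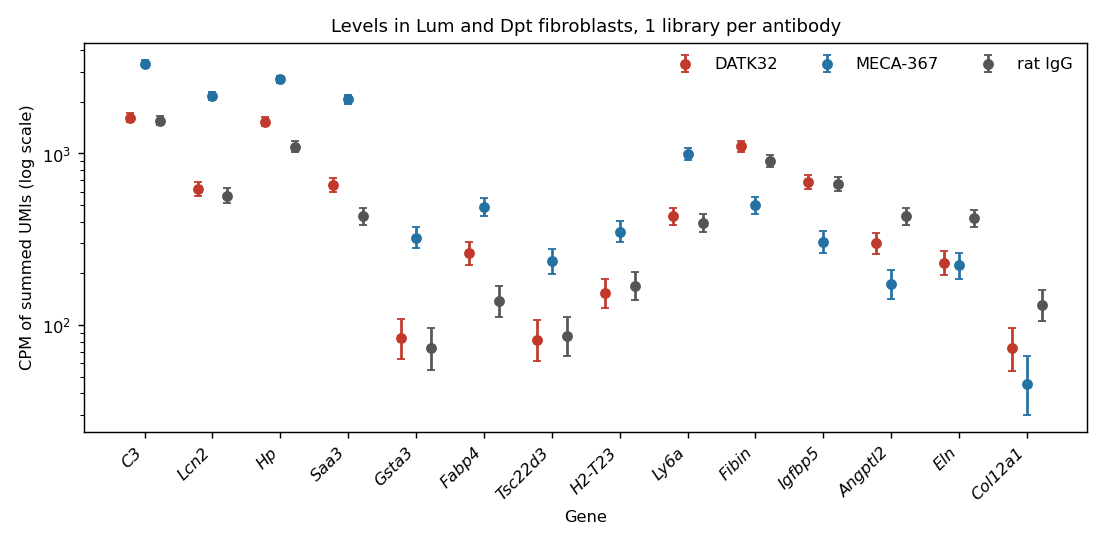
CPM of summed member UMIs on a log axis for 14 genes named in the text in DATK32, MECA-367 and rat IgG, with exact 95% Poisson intervals that cover counting error only. From C3 to Ly6a the MECA-367 point is highest. For Fibin, Igfbp5 and Angptl2 it is lowest, and Fibin is a gene of the membership rule. Eln and Col12a1 are highest in rat IgG.

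None of 7 measured fibrillar collagens was called in either comparison with rat IgG, with medians of -0.09 for DATK32 and -0.20 for MECA-367. Col3a1 had 3985, 4349 and 4102 CPM in DATK32, MECA-367 and rat IgG, and Col1a1 had 1442, 1371 and 1533 CPM. Of 8 measured leucine-rich proteoglycans, to which Lum and Dcn belong, only Ogn (osteoglycin) was lower in MECA-367, at 133, 80.9 and 165 CPM, and none was called in DATK32. Eln, the elastin gene, had 229 CPM in DATK32, 222 CPM in MECA-367 and 419 CPM in rat IgG, and was lower in both antibody libraries, at -0.86 and -0.91 on the log2 scale. Its thinned shares of 19.5%, 13.6% and 29.5% kept that order with rat IgG highest. Col12a1, a collagen of fibril surfaces, had 73.0, 45.5 and 131 CPM, lower in both antibody libraries as well. Without each library's highest Col12a1 cell neither ratio was called. Of 11 measured other collagens 4, Col6a2, Col6a3, Col12a1 and Col16a1, were lower in MECA-367, with a median of -0.37, and 1 in DATK32, with a median of -0.21. Among all measured genes 2.99% were lower in MECA-367 and 1.31% in DATK32.

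Elastic fibre and crosslinking genes went both ways in MECA-367. Of 37 measured, Mfap5, Ltbp1 and Lox were higher and Eln, Mfap4, Loxl1 and Spon2 lower, with a median of -0.14. Lox and Loxl1 encode related crosslinking enzymes: Lox had 124, 270 and 132 CPM and Loxl1 had 194, 120 and 206 CPM in DATK32, MECA-367 and rat IgG. In each case MECA-367 was the library that stood apart. In the thinned cells Mfap5, Lox and Mfap4 were not called. Of 30 measured matrix turnover genes 7 were higher and 2 lower in MECA-367, with a median of 0.12, and 0 were called in DATK32, with a median of -0.18. Both lists stand beside 3.21% higher and 2.99% lower in MECA-367 among all measured genes. Mmp2, which encodes gelatinase A, was among the lower at 489, 337 and 572 CPM. Mmp13, which encodes collagenase 3, had 5, 113 and 10 UMIs, but 1 MECA-367 cell held 109 of them and the direction turned in the thinned cells.

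Growth factor genes were mostly lower where called. Igfbp5 had 685 CPM in DATK32, 307 CPM in MECA-367 and 667 CPM in rat IgG, a MECA-367 log2 ratio of -1.12. Angptl2, an angiopoietin-like secreted protein, had 301, 174 and 430 CPM, and Gas1 as given above was also lower in MECA-367. Igf1, insulin-like growth factor 1, had 614, 893 and 587 CPM, a ratio of 0.60 that lay at the fold threshold. Of 22 measured growth factors and binding proteins 2 were higher and 4 lower in MECA-367, with a median of -0.19, and 1 was lower in DATK32, with a median of -0.01. The same shares among all measured genes were 3.21%, 2.99% and 1.31%. Of 14 measured Wnt and BMP pathway genes only Wnt5a was called, lower in both antibody libraries at 92.4, 80.9 and 147 CPM, and in neither after thinning. Hic1, a transcriptional repressor of quiescent mesenchymal cells, had 74.5, 33.7 and 105 CPM, and Gdf10, a BMP family member, 110, 59.0 and 150 CPM, both lower in MECA-367. The Gdf10 ratio of -1.32 was -0.29 in the thinned cells. The 8 lowest for MECA-367 over rat IgG also held the calcium channel gene Cacna1g at -1.23, the synapsin gene Syn2 at -1.14, Irf2bpl at -1.14 and Kctd12 at -1.13. Tsix, which is antisense to Xist, was the lowest at -1.65, and without a stated strand setting its reads cannot be told apart from those of Xist. Its T cell levels were 107, 56.4 and 143 CPM in DATK32, MECA-367 and rat IgG. The calls of Tsix and Cacna1g were lost in the thinned cells. Fibin, a secreted fin-bud protein known from zebrafish and itself a gene of the rule, had 1101, 500 and 905 CPM, while Lum (4153, 3543 and 4079 CPM) and Mgp (12091, 12433 and 10579 CPM) were not called.

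**Figure D5:**
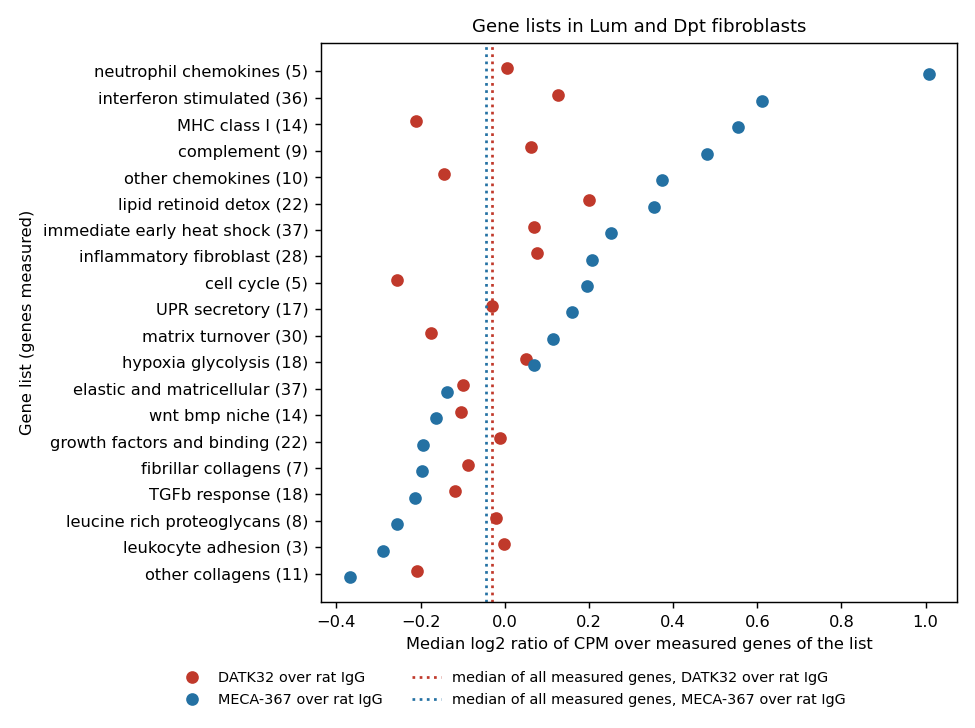
Median log2 ratio of CPM over the measured genes of each list in members, DATK32 over rat IgG and MECA-367 over rat IgG, with the medians of all measured genes as dotted lines. MECA-367 medians run from 1.01 for neutrophil chemokines to -0.37 for other collagens, while DATK32 medians stay between -0.26 and 0.20. The neutrophil chemokine list also holds the cytokine genes Il6 and Il11. Its median rests on 5 genes and is the ratio of Cxcl5, which was -0.35 in the thinned cells.

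The remaining lists are given beside the shares over all measured genes, 3.21% higher and 2.99% lower for MECA-367 over rat IgG. In this comparison 3 of 18 measured genes of the TGF-beta response were higher and 2 lower, with a median of -0.21. Of 17 secretory stress genes 1 was higher, and of 18 hypoxia and glycolysis genes 1 was higher and 1 lower. Of 5 cell cycle genes 1 was lower, and 0 of 3 leukocyte adhesion genes were called. For DATK32 over rat IgG 0 genes of these lists were called.

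Members of DATK32 differed from those of rat IgG in fewer genes. The 8 highest genes by the naming rule included Hebp1, a haem-binding protein, with 106 CPM in DATK32, 57.3 CPM in MECA-367 and 50.3 CPM in rat IgG, a DATK32 log2 ratio of 1.05. Tmem256 had 209, 118 and 112 CPM, and Dpm3, a subunit of dolichol-phosphate mannose synthase, 274, 180 and 160 CPM, both with DATK32 alone high. Ubb, a polyubiquitin gene, had 1386, 2010 and 772 CPM in members and 1556, 2158 and 1029 CPM in T cells, so that its order of libraries was not limited to members. Cdk11b and Fabp4 were also called, while Commd6 and Fkbp3 at 0.79 each were not. Among the 8 lowest, Prkacb, a catalytic subunit of protein kinase A, had 49.2, 70.8 and 106 CPM, a ratio of -1.09. Maf, a transcription factor, had 74.5, 115 and 132 CPM. Ryk, a Wnt receptor, had 73.0, 97.7 and 129 CPM, and Mga, Gna13, Snx9, Pum2 and Eln made up the rest. In the thinned cells Fabp4, Eln, Gna13 and Snx9 kept their DATK32 call. Hebp1, Cdk11b, Tmem256, Dpm3, Ubb, Prkacb, Maf, Ryk, Mga and Pum2 were not called there. The calls of Gna13 and Pum2 held in 4 and 3 of 10 alternatives.

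Set directly against each other, DATK32 had 123 genes (2.27%) higher and 138 (2.55%) lower than MECA-367. On the log2 scale, higher in DATK32 were Fibin at 1.14, Igfbp5 at 1.16 and Cox8b at 1.19. Fibin is itself a gene of the rule. Cox8b had 305 CPM in DATK32 and 133 CPM in MECA-367. Lipg, which encodes endothelial lipase, had 136 CPM in DATK32 and 60.7 CPM in MECA-367. Ndufb1-ps at 1.13, the actin-associated gene Palld at 1.12, Syn2 at 1.11 and Tax1bp3 at 1.10 were also among the 8 highest. Of the 8 highest, Lipg, Palld, Syn2 and Tax1bp3 were not called in the thinned cells. Lower in DATK32 were Lcn2 at -1.79, Gsta3 at -1.94 and Scara5 at -1.73. Mfap5, an elastin microfibril protein, had 19.4 CPM in DATK32 and 87.6 CPM in MECA-367, and Mpeg1, a perforin-like protein best known from macrophages, 16.4 and 91.0 CPM. The macrophage marker sums given above were also lower in DATK32 than in MECA-367, and their part in the Mpeg1 difference was not tested. All 5 measured genes of the neutrophil chemokine list, Cxcl1, Cxcl2, Cxcl5, Il6 and Il11, were lower in DATK32 than in MECA-367. So were 5 of 14 MHC class I genes, with a list median of -0.67, against 2.55% of all measured genes. In the thinned cells Cxcl2, Cxcl5, Il6 and Il11 were not called, at 0.19, -0.49, -1.46 and -1.07, and the Il11 call was also lost without each library's highest Il11 cell.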

How the data were processed

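Single-cell RNA was measured in 3 libraries of colon lamina propria cells, made with a 3' kit of version 3.1 per the labels' protocols. The deposited matrices hold counts, UMIs per gene and barcode, made by the authors with Cell Ranger 6.0.2 on build mm10, per the submitters' processing notes; the annotation, strand setting and barcode filter are not given in the sources used here. The matrices hold 28030376, 27846540 and 30359331 UMIs for DATK32, MECA-367 and rat IgG, over 8445, 8387 and 10826 barcodes, of which 5852, 5890 and 7367 were kept. Kept sets shared 7 to 11 barcodes between libraries. The members, gene lists and rules were chosen with earlier results of these data known.

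Counts of members were summed per library and divided by the members' total (CPM), with exact Poisson intervals; log2 ratios have 1 count added to each sum. With 1 library per group no test was run. The text names the 8 highest and 8 lowest ratios of each comparison among genes with at least 60 counts in both libraries together and a UMI in at least 10% of the higher library's members. Their CPM in members also had to reach that of the other kept barcodes. For members against mucosal fibroblasts it names the 12 highest and 12 lowest, and besides these the supplied markers, the rule's genes and genes of the lists. T cells, by receptor and Ptprc UMIs, give the background share. Shares of cells with a UMI were compared after thinning to 1000 UMIs, which left out 179, 50 and 313 members of DATK32, MECA-367 and rat IgG. Scrublet, run in scanpy 1.11.5, marked 1 barcode in all by its own threshold and so did not work as a caller; its highest scores were left out as an alternative. TMM factors came from edgeR 4.0.16. The ratio and thinning code was tested on simulated counts. Python 3.11.15, numpy 2.4.6, scipy 1.17.1 and R 4.3.3 were used.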

Additional observations from a re-analysis of the deposited data

Results flagged for a closer look

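For 3 genes, members and mucosal fibroblasts went opposite ways between the same pair of libraries, each past 1.5-fold with intervals apart. The difference between the classes was not tested. Saa3 was higher in DATK32 than in rat IgG in members, at 0.61 on the log2 scale, and lower in mucosal fibroblasts, at -0.73; T cell levels were 480 and 227 CPM in those libraries. The member call held in 3 of 10 alternatives, and the ratio was called lower without the highest Scrublet scores, at -0.64, and after thinning, at -1.92, the direction of the mucosal ratio. Ccl5, a chemokine of T and NK cells, was at -1.81 for DATK32 over rat IgG in members and 1.34 in mucosal fibroblasts. It had 21 and 79 UMIs in members and 2428 and 1647 CPM in T cells of those libraries. Its thinned shares were 1.63% and 4.36% in members and 52.7% and 45.8% in T cells. Since T cells make Ccl5, their share is no background for it, and the origin of its UMIs in members was not tested. Ccn1, a matricellular protein, was at 0.65 for DATK32 over MECA-367 in members and -0.84 in mucosal fibroblasts, with 1310 and 832 CPM in members and 27.6 and 17.3 CPM in T cells.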

How the results depend on the processing

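No paired analysis was possible because each group is 1 library. The share of members among both fibroblast classes kept its direction and call under every alternative, and 90 of the summary values in all did not move. The share of kept barcodes moved with depth: with at least 1000 UMIs and 500 genes the log2 ratios were 0.30 for DATK32 over rat IgG, -0.20 for MECA-367 over rat IgG and 0.50 for DATK32 over MECA-367, and after thinning 0.33 and -0.20 for the comparisons with rat IgG. With a mitochondrial limit of 5% there were 41 lower genes for DATK32 over rat IgG, 106 lower for MECA-367 over rat IgG and 75 higher for DATK32 over MECA-367, of 3607 measured. Thinning gave 45 lower for DATK32 over rat IgG, 89 higher and 90 lower for MECA-367 over rat IgG, and 59 higher and 79 lower for DATK32 over MECA-367, of 2833 measured. The mean over cells gave 71 higher and 119 lower for DATK32 over rat IgG and 208 lower for DATK32 over MECA-367. TMM scaling gave 76 higher and 42 lower for DATK32 over rat IgG. Fewer genes were measured at the 5% limit and after thinning; otherwise the cause was not tested.

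Signs turned in 13 gene results. For Saa3, DATK32 over rat IgG, the ratio was -0.13 with the rule at 3 UMIs, -1.92 after thinning and -0.64 without the highest Scrublet scores. For MECA-367 over rat IgG, Mmp13 was -0.81 and Mmp10 -0.40 with the rule at 3 UMIs; after thinning Mmp13 was -1.15, Cxcl5 -0.35, Cxcl2 -0.0446 and Cxcl9 -0.13. Mmp10 was -0.12 without each gene's highest member, an alternative chosen after seeing the data. After thinning, Iigp1 and Igfbp3 were -0.0635 and 0.0159 for DATK32 over rat IgG, and Cxcl2 was 0.19 for DATK32 over MECA-367. Of the other gene values 264 moved and 2333 did not. For MECA-367 over rat IgG, C3 ranged from 0.78 to 1.21, Lcn2 from 1.59 to 2.03 and Gsta3 from 1.68 to 2.86. All of these kept their call. Fibin, itself a gene of the rule, ranged from -1.08 to -0.68 with the same call each time.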

Other observations

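Madcam1, which encodes the MECA-367 target, had 1, 0 and 20 UMIs in members of DATK32, MECA-367 and rat IgG, and 1 rat IgG cell held 16 of the 20. The mast cell gene Mcpt1 had 0, 0 and 75 UMIs, all 75 in 1 rat IgG cell. Barcodes over the mitochondrial limit that met the rest of the membership rule numbered 19, 19 and 44 in DATK32, MECA-367 and rat IgG. Cd81, a tetraspanin that marks Grem1-bearing fibroblasts below the crypts, had 374, 339 and 365 CPM in members against 23, 22.6 and 41.8 CPM in mucosal fibroblasts, while Grem1 had 197, 281 and 260 CPM against 631, 240 and 318 CPM. Cd81 was thus higher in members in each library and Grem1 was not. Fkbp5, known to be induced by glucocorticoids, had 28.3, 64.0 and 25.9 CPM in members of DATK32, MECA-367 and rat IgG, and Per1, also so known, had 55.1, 60.7 and 67.6 CPM; both were looked up after Tsc22d3 and Zbtb16 were seen.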
